A study of Rattus norvegicus with 7 samples.

Results

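The untreated meibomian gland was described from 4 RNA sequencing libraries, the control group of a series of 7 libraries from rats. The other libraries came from glands of eyelids exposed to ultraviolet B light and were not used. The 4 libraries were taken by their label of no treatment, and no measured value entered the choice. They came from wild-type female Sprague-Dawley rats, an albino outbred stock, at 3 months of age. Glands were dissected out of the removed eyelids and snap frozen, and 1 µg of total RNA went into each library. Whether a library held 1 animal or a pool, and whether the eyelids of controls were shaved, is not given in the sources used here. The spread between libraries may therefore be partly technical. The libraries are called control a to d, in letters that carry no order. Where a control is called a gland below, the library is meant, which need not be a single gland.

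The meibomian gland is a large holocrine sebaceous gland of the eyelid. Its meibocytes arise from a basal layer, fill with lipid droplets and break down into meibum, the secretion that forms the lipid layer of the tear film. Meibum is rich in wax esters and cholesteryl esters built from very long chains, so the cells run fatty acid synthesis, desaturation, chain elongation, reduction of acyl chains to fatty alcohols and ester formation side by side. Acini drain through ducts lined by stratified epithelium to an orifice between the skin and the conjunctiva, and muscle, vessels, nerves and hair follicles lie around them.

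The 4 libraries held between 21058541 and 28784941 counts. Levels are given in TPM, the abundance of a gene's transcripts scaled to the library's total and corrected for transcript length, so that levels of different genes can be compared. The 17246 genes of the table held 82% to 83.4% of the full TPM total of a library, and shares below are of this listed sum. Ranks of genes were nearly the same in every library, with a Spearman correlation of 0.986 to 0.991 over the 6 pairs of libraries, across genes at a mean of 1 TPM or more. Values with ± are the mean and SD over the 4 libraries. No 2 libraries agreed within counting noise as a library deposited more than once would, with a chi-square of 10.5 to 24.8 for each degree of freedom over the 6 pairs.

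At 1 TPM or more in all 4 libraries, 12090 of 17246 genes were detected, 70.1% of the table. The median gene stood at 8.46 TPM. A mean of at least 10 TPM was reached by 8113 genes (47%) and a mean of at least 100 TPM by 1388 genes (8.05%), while 805 genes (4.67%) were listed at 0 in all 4. A small part of the genes held most of the expression. Between 391 and 408 genes held 50% of the listed TPM in a library, the 100 most abundant genes held 29.9% ± 0.563 (SD, n = 4), and the 10 most abundant held 10.05% ± 0.203 (SD, n = 4). A set of 76 ribosomal protein genes held 10.3% ± 0.671 (SD, n = 4).

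Scd, the stearoyl-CoA desaturase that places the double bond in oleate and palmitoleate, ranked first in all 4 libraries, at 31198, 25353, 27643 and 26576 TPM in controls a to d. Its mean of 27692 ± 2517 TPM (SD, n = 4) was 3.35% ± 0.295 of the listed TPM. Of the counts, which are not corrected for length, it took 7.96% ± 0.584 (SD, n = 4). Second in every library was Awat2, the wax alcohol acyltransferase that joins fatty alcohols to acyl chains, at 12001, 10767, 11609 and 12062 TPM and a mean of 11609.7 ± 597 TPM (SD, n = 4). The ranges of Scd and Awat2 were far apart, and no other gene reached either. Next by mean came Eef1a1, a translation elongation factor, at 8282 ± 416 TPM, and the range of Awat2 lay above it.

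Of the 30 most abundant genes, 10 are ribosomal protein genes, 1 of them annotated as the pseudogene Rps29-ps16, and 1 is the elongation factor Eef1a1. Lipid genes made up the next group. Elovl1, a fatty acid elongase, stood at 6364 ± 725 TPM (SD, n = 4), between the ranks 4 and 6. Apoe, a lipid carrier protein, stood at 4717, 7223, 5924 and 5805 TPM, lowest in control a and highest in control b, so that its rank moved between 4 and 8. Dbi, which binds acyl-CoA, stood at 3839 ± 538 TPM. Fabp5, an epithelial fatty acid binding protein, reached 3023 ± 313 TPM, the elongase Elovl4 2446 ± 258 TPM, the lipid droplet protein Cidea 2405 ± 156 TPM and Hmgcs1, the synthase that forms HMG-CoA, 2175 ± 267 TPM (SD, n = 4 each). The rest of the 30 were mostly epithelial. Krt14 and Krt5, the keratin pair of basal cells, stood at 5279 ± 529 and 3564 ± 442 TPM. Lgals7, a galectin of stratified epithelium, had 4218 ± 289.9 TPM, Krt13, a keratin of wet-surfaced epithelium, 3597 ± 452 TPM, and Cst6, a cystatin protease inhibitor of the epidermis, 3161 ± 659.6 TPM. Tmbim6, a membrane protein that protects against cell death, closed the list at 2173 ± 136 TPM. Besides Rps29-ps16, entered in the table under a locus number, 2 of the 30 carried no symbol, LOC102549542 at 4251 ± 491 TPM and ENSRNOG00000065108 at 2217 ± 532 TPM. The latter was the most uneven of the 30, at 1604, 2902, 2150.0 and 2212 TPM.

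**Figure D1:**
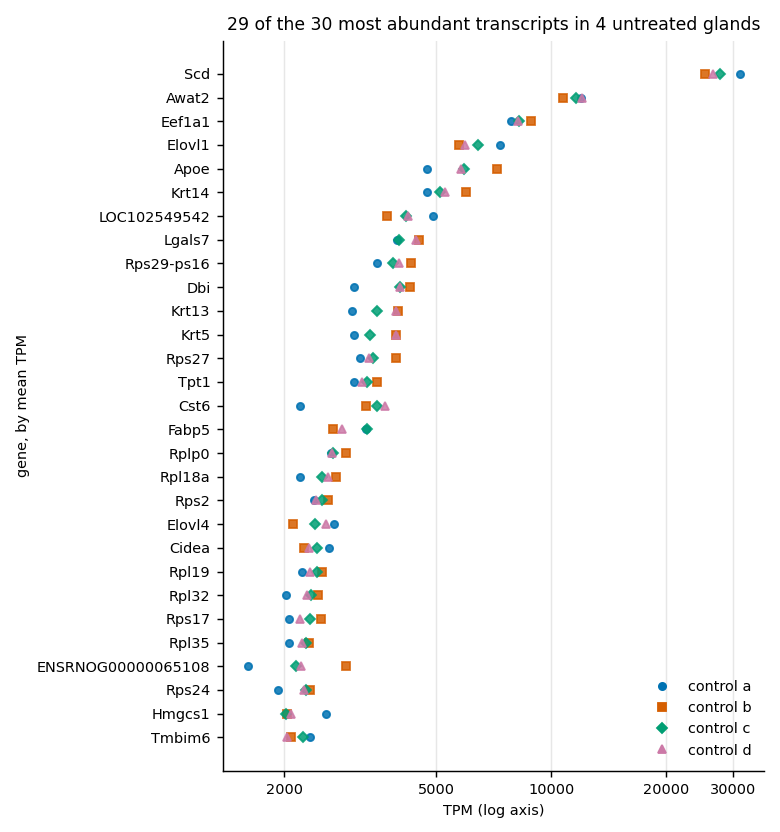
TPM of the 30 most abundant genes, except 1 not reported here (log axis), in the 4 untreated glands, 1 symbol per library, ordered by mean. Scd, at 25353 to 31198 TPM, and Awat2, at 10767 to 12062 TPM, stand clear of all other genes, while the points of neighbouring genes further down overlap.

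For 11 of the 30, Scd, Krt14, Krt5 and Eef1a1 among them, counts were not whole in any library. Counts that are not whole arise where reads are shared out between similar genes or transcripts, and the levels of these genes are uncertain by that share. Awat2, Elovl1, Elovl4 and Cidea had whole counts in all 4.

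The sequence before the transcription start is shown for the 2 most abundant genes and, because their promoters share a motif, for 2 genes of the cholesterol pathway. The sequences are the 250 bases upstream of the start in RefSeq (GRCr8), 5′ to 3′ on the strand of the gene. Capitals mark the CCAAT box, written CCAAT or ATTGG according to the strand, and the TATA box TATAAA, where the search found them.
Scd, chr1:253231732-253231981, minus strand: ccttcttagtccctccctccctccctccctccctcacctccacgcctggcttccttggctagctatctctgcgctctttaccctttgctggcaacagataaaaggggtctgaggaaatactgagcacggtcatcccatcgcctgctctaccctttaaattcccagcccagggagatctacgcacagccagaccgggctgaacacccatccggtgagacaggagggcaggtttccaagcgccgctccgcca
Awat2, chrX:69530665-69530914, minus strand: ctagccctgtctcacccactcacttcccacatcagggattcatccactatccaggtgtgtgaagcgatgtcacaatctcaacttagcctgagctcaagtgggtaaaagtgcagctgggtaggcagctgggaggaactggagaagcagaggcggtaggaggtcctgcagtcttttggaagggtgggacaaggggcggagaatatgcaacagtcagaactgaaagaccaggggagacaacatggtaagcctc
Hmgcs1, chr2:53382054-53382303, plus strand: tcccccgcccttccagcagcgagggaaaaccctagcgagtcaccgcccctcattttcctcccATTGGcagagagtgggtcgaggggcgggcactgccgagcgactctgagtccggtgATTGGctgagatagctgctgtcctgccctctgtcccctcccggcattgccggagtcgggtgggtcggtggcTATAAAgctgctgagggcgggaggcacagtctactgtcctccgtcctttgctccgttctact
Fdps, chr2:176804817-176805066, minus strand: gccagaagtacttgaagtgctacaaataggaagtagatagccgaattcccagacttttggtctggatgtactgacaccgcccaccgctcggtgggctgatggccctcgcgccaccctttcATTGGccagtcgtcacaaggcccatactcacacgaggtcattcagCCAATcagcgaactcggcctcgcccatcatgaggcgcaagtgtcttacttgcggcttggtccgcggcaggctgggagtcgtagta

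Both strands were searched for 4 motifs, the TATA box TATAAA, the CCAAT box given above, the sterol regulatory element TCACNCCAC and the E-box CACGTG, with N for any base; none of them overlapped another in the sequences shown. Scd and Awat2 held none of the 4 in this window. Hmgcs1 held a TATAAA whose first base lies at -62 from the start and CCAAT boxes at -188 and -133, and Fdps, the farnesyl diphosphate synthase, held CCAAT boxes at -130 and -85. Of 13 genes of a cholesterol synthesis list with a promoter in the table, 11 (84.6%) held CCAAT, against 34.9% of the 12742 genes that could be matched and 3 of 9 (33.3%) on the meibocyte list. None of the 13 held the sterol regulatory element in the form searched, which 1.02% of all matched promoters held. TATAAA was found in 10 of 69 matched promoters of the 100 most abundant genes (14.5%), in 8.10% of all matched promoters and in 12.6% of those of genes under 1 TPM in any library. A match describes the letters only and is not evidence of a bound factor.

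The choice among enzymes of 1 family was read from 48 families with 222 members in the table. At 1 TPM or more in all 4 libraries stood 173 of the 222, where the share over all genes was 70.1%. The same member led in 4 of 4 libraries in 43 families, and in 41 the ranges of the first and second member did not overlap. The leader held over 50% of the family's TPM in 41 families, over 75% in 19 and over 90% in 10. With only 4 libraries a paired exact test of 1 gene against another cannot go below p = 0.125 (two-sided), so the order of members is given by whether their ranges over the libraries overlap.

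Scd was the highest of the desaturases. It held 89.5% ± 0.675 of the TPM of the 4 stearoyl-CoA desaturases (SD, n = 4), 17.7 times the level of Scd4. Scd4 stood at 1618, 1287, 1726 and 1626 TPM and Scd3, added to the family after its values were seen, at 1374, 1028, 1282 and 967 TPM, ranges that overlapped. Scd2 followed at 594, 425, 541 and 512 TPM, below both. The 4 genes lie next to each other on 1 chromosome in GRCr8 and their counts were not whole in at least 3 libraries, so the split between them is uncertain. Among other desaturases, Fads6 at 323 ± 59 TPM and the sphingolipid desaturase Degs1 at 232 ± 22.7 TPM overlapped, while Fads2 and Fads1, the front-end desaturases of polyunsaturated fatty acids, were low at 9.21 ± 1.04 and 8.0 ± 2.10 TPM (SD, n = 4). Fads2l1, a gene named after its likeness to Fads2 and picked after its values were seen, stood at 1684, 1692, 1731 and 1760.0 TPM, above all of these.

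Chain elongation proceeds in 4 steps, and for each a highly expressed gene was found. For condensation, Elovl1, known for saturated and monounsaturated very long chains, held 63.6% ± 0.977 of the TPM of 6 elongases (SD, n = 4). Elovl4, which makes the longest chains, held 24.5% ± 1.59, and Elovl3, an elongase of sebaceous glands and brown fat, 9.31% ± 0.766 at 935 ± 158 TPM. Elovl5 stood at 236 ± 33.2 TPM, Elovl7 at 20.6 ± 3.99 TPM and Elovl2, an elongase of polyunsaturated chains, at 5.04 ± 1.05 TPM. The ranges of these 6 genes followed each other without overlap. Elovl6 was not analysed here. The second step, a reduction, is carried out by Hsd17b12, at 586 ± 80.8 TPM. For dehydration, the step after it, Hacd2 at 489, 477, 464 and 479 TPM held 90.4% of a family of 4, 12.9 times Hacd3 at 37 ± 3.23 TPM. Tecr, the reductase of the last step, stood at 1649 ± 67.6 TPM. Hsd17b12 and Tecr were picked after their values were seen.

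Genes that supply malonyl-CoA and palmitate stood at lower levels than Scd, Elovl1 and Elovl4. All 8 listed genes in the table passed 10 TPM, as did 47% of all genes. The list median was 283 TPM, close to the 275 TPM of the cholesterol synthesis list. Slc25a1, which exports citrate from mitochondria, stood at 714 ± 54.1 TPM, the malic enzyme Me1, a source of NADPH, at 670.5 ± 79.1 TPM, and Fasn, the fatty acid synthase, at 372 ± 54.3 TPM. Me1 held 99.1% of the malic enzymes. The carboxylases Acaca and Acacb overlapped, at 134, 123, 127 and 116 TPM and 129, 104, 122 and 83.2 TPM, although Acaca was the higher in each library.

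Fatty acid activation and transport each had 1 main gene. Acsbg1, an acyl-CoA synthetase of the bubblegum type, held 58.2% ± 2.17 of its family of 7 at 769 ± 77.6 TPM, followed by Acsl5 at 423 ± 15.2 TPM. Acsl1, the main synthetase of fat and liver, stood at 46.7 ± 2.65 TPM. Fabp5 held 98.5% ± 0.178 of the fatty acid binding proteins. Fabp4 of fat cells stood at 30.9, 36.5, 43.7 and 31.4 TPM, and Fabp1 and Fabp9 were listed at 0 in all 4 libraries. Of the fatty acid transport proteins, Slc27a4, the form of skin, led at 113 ± 3.63 TPM, 2.04 times Slc27a1.

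Among the genes of ester formation, Awat2 of the wax branch stood clear of the rest. Far2 and Far1, the reductases that turn acyl-CoA into fatty alcohol, stood at 2117, 1395, 1699 and 1393 TPM and 925, 700.2, 754 and 785 TPM, ranges that did not overlap, and Far2 held 67.4% ± 2.63 of the pair. Awat2 held 89.7% ± 0.289 of 7 acyltransferases of wax and glycerides. Awat1, the other wax synthase, had 1109.5, 918, 953 and 999.7 TPM and Dgat2, which completes triglycerides, 283, 315, 304 and 391 TPM. Dgat1, the other enzyme of that step, had 16 ± 0.915 TPM and Dgat2l6 2.97 ± 1.14 TPM. Awat2, Dgat2l6 and Awat1 are neighbours on the X chromosome in GRCr8, and these adjacent genes stood at very different levels. Soat1, which forms cholesteryl esters, stood at 1661, 1248, 1531 and 1272 TPM and held 99.9% of its pair, while Soat2, the form of liver and intestine, had 1.06 ± 0.233 TPM. In the glycerolipid pathway Gpam led the first acylation at 122 ± 13.1 TPM, Agpat3 the second at 163 ± 18.8 TPM, and Lpin3 the lipins at 57.2 ± 2.54 TPM, each with a range above that of the second gene of its family.

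Ceramide synthesis had no single leader. Cers5 and Cers4 stood at 445, 246, 345 and 338 TPM and 375, 262, 267 and 268 TPM; their ranges overlapped and Cers4 was the higher in control b. Cers3, which makes the ultra-long ceramides of the epidermal barrier, had 11.4 ± 1.01 TPM.

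**Figure D2:**
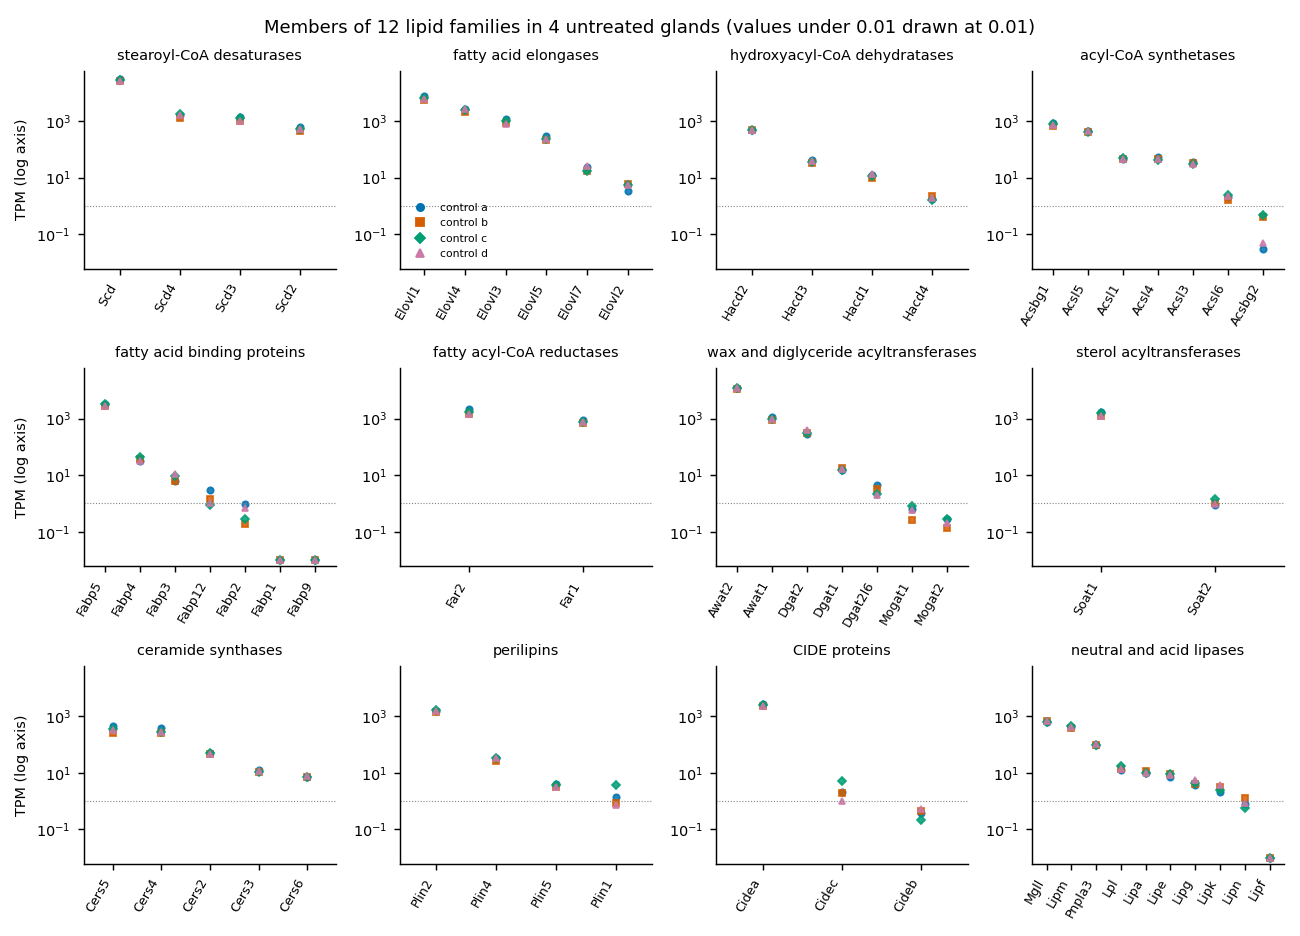
TPM of each member (log axis) of 12 lipid families in the 4 untreated glands, members ordered by mean within a family; the dotted line marks 1 TPM. Scd, Awat2, Soat1, Cidea, Plin2 and Fabp5 stand far above the next member, Cers5 and Cers4 overlap, and Fabp1, Fabp9 and Lipf are at 0.

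Lipid droplets carried Cidea and Plin2. Cidea, which moves lipid between touching droplets, stood at 2613, 2258, 2429.9 and 2319 TPM and held 99.9% of the CIDE family; Cidec, the form of white fat, had 2.15, 1.95, 4.95 and 1.04 TPM. Plin2, the general droplet coat, stood at 1552, 1442, 1666 and 1535 TPM with 97.7% of 4 perilipins, and Plin1, the coat of fat cells, at 1.41, 0.87, 3.77 and 0.75 TPM. Control c was the highest library for both Cidec and Plin1. Abhd5, a coactivator of lipases, had 491 ± 52.3 TPM. Of 10 lipases, Mgll, which splits monoglycerides, led at 632 ± 22.7 TPM, followed by Lipm, an acid lipase of keratinocytes, at 420.0 ± 20.5 TPM. Lpl, which frees fatty acids from lipoproteins, had only 14.3 ± 2.26 TPM and the lysosomal lipase Lipa 10.3 ± 1.07 TPM, and Lipf, the gastric lipase, was listed at 0.

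Genes of cholesterol synthesis were abundant: all 18 listed genes in the table stood at 10 TPM or more, where 47% of all genes did, with a list median of 275 TPM against 8.46 TPM over all genes. Hmgcs1, early in the route, stood at 2573, 2028, 2019.8 and 2077 TPM, highest in control a. Among the middle genes, Fdps stood at 1472, 1065, 1244 and 1046 TPM and Sqle, the squalene epoxidase, at 199 ± 33.4 TPM. Late genes included Msmo1, a sterol oxidase, at 1427 ± 264 TPM and Dhcr7, the reductase of the ring, at 1121 ± 102 TPM. Insig1, which holds the sterol sensor in the endoplasmic reticulum, had 399 ± 33.6 TPM (picked after its values were seen).

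Peroxisomal and mitochondrial lipid genes were also present. Of 7 ether lipid genes all stood at 1 TPM or more in every library, where 70.1% of all genes did. Besides Far2 and Far1, Tmem189, the desaturase that completes plasmalogens, had 127 ± 20.5 TPM, and Agps, which forms the ether bond, had 7.23 ± 0.245 TPM. Acox3, an oxidase of branched chains in peroxisomes, stood at 153, 79.3, 87.8 and 64.7 TPM, highest in control a. Cpt1a, the gate of mitochondrial beta oxidation, stood at 75.3 ± 7.90 TPM and its muscle form Cpt1b at 6.88 ± 0.759 TPM. Among genes picked after their values were seen, Acadm, a medium-chain acyl-CoA dehydrogenase, stood at 1328 ± 165 TPM, and Hadha and Hadhb, the subunits of the mitochondrial trifunctional protein, at 529 ± 15.8 and 601 ± 28.7 TPM.

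Nuclear receptors of lipid cells were expressed at moderate levels. Pparg, the receptor that drives lipid storage and meibocyte differentiation, stood at 105, 90.8, 97 and 96 TPM, 1.93 times Ppard at 50.3 ± 4.23 TPM, and Ppara had 17.6 ± 1.97 TPM. Its partner Rxra held 89.1% of the RXR family at 151 ± 11.8 TPM. Rarg, the retinoic acid receptor of skin, held 87.4% of its family at 145 ± 4.11 TPM. Srebf1 and Srebf2, the factors of fatty acid and sterol synthesis, stood at 136 ± 11.5 and 96.4 ± 3.13 TPM without overlap. The oxysterol receptors Nr1h2 and Nr1h3 overlapped, at 61.7, 60.4, 65.1 and 58.2 TPM and 51.3, 56.1, 59.1 and 59.99 TPM.

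Steroid hormones are known to act on the gland. The glucocorticoid receptor Nr3c1 stood at 28.2, 28.2, 30.8 and 29.2 TPM, while the estrogen receptor Esr1 had 2.90 ± 0.578 TPM and Esr2 was at or under 0.04 TPM in every library. Of the reductases that make dihydrotestosterone, Srd5a1 had 151, 159.7, 168 and 147 TPM and Srd5a2, the form of prostate, at most 0.08 TPM in any library. Hsd11b1, which regenerates active glucocorticoid and was picked after its values were seen, stood at 1291, 1175, 1043 and 1159 TPM.

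Of receptors on the cell surface, only the melanocortin, muscarinic, adrenergic and VIP families were read, and their leaders stood below Pparg. Mc5r, the melanocortin receptor of sebaceous glands, was uneven at 23.3, 36.2, 13.2 and 34.3 TPM, and it held 99.4% of the melanocortin receptors in the table; Mc4r was listed at 0. Among autonomic receptors Adra1a led the alpha-1 group at 2.56 ± 0.616 TPM and Chrm3 the muscarinic group at 0.73, 1.40, 1.49 and 1.29 TPM. Adcyap1r1 and Vipr2, receptors of PACAP and VIP, had 1.36, 2.72, 2.26 and 2.42 and 1.36, 1.95, 1.79 and 1.84 TPM and were level in control a.

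Among families of energy metabolism, Slc2a1 led the glucose transporters at 78.9 ± 3.72 TPM, and Hk1 and Hk2 stood at 46.1, 51.1, 49.3 and 49.7 TPM and 46, 41.4, 41.1 and 28.7 TPM, close together in control a and without overlap of their ranges. Ldha had 698 ± 99.4 TPM and Ldhb 449 ± 10.3 TPM. The muscle form Ckm led the creatine kinases with 67% ± 3.45 of the family's TPM (SD, n = 4). The cyclooxygenases were low: Ptgs1 had 3.36 ± 0.327 TPM and the inducible Ptgs2 0.225 ± 0.0238 TPM. The epidermal lipoxygenases Alox12e and Aloxe3 stood at 28, 57.8, 34.7 and 38.5 TPM and 34, 23.5, 28.2 and 24 TPM; the order reversed in control a.

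Junction and barrier families named the epithelial forms. Cldn1 led the claudins at 339 ± 33.8 TPM and Cldn2, of leaky epithelia, was at most 0.04 TPM. Dsg1 and Dsc3 led the desmosomal cadherins at 302 ± 22.2 and 268 ± 13.7 TPM. Aqp3, the water and glycerol channel of epidermis, had 474, 594, 563 and 701 TPM, 7.67 times Aqp1 of vessels, and Aqp5 of serous acini had 2.54 ± 0.393 TPM. Dnase2, the lysosomal nuclease known to clear nuclear DNA in holocrine secretion, led the DNases at 70.8, 72.8, 73.3 and 81.7 TPM. A list of lysosomal genes, which holds the membrane protein Lamp1 beside hydrolases, had 20 of 20 at 10 TPM or more (47% of all genes were). It was led by the protease Ctsd at 1067 ± 63.4 TPM.

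Keratins of basal, ductal and cornifying layers were all present. In the type I family Krt14 held 45.7% ± 1.61, Krt13 31.1%, Krt17, of ducts and appendages, 13.9% and Krt10, of cornifying epidermis, 7.58%, with ranges in TPM that did not overlap. In the type II family Krt5 held 42.9% ± 1.64. It was followed by Krt79, known from sebaceous ducts, at 1651, 1480.5, 1513 and 1577 TPM, Krt1, the partner of Krt10, at 1381, 1626, 1313 and 1565 TPM and Krt4, the partner of Krt13, at 942, 1374, 1211 and 1194 TPM. Neighbours among these 3 overlapped in range. Among keratins of simple epithelium, Krt8 and Krt18 were low, at 9.38 ± 3.17 and 1.47 ± 0.78 TPM, while Krt7 had 40.7 ± 7.07 TPM. Krt19 was not analysed here.

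The cell types in the dissected tissue were read from 29 marker lists, and 20 of them had a median member at 1 TPM or more. Of all genes, 70.1% stood at 1 TPM or more in all 4 libraries, and the median gene had 8.46 TPM. Lists below that median also passed, such as adipocyte at 2.52 TPM and mast cell at 1.38 TPM. The count of 20 therefore does not show that a cell type is present. In bulk libraries a difference in the number of cells of a type and a difference in RNA per cell cannot be told apart. The meibocyte list had the highest median of all 29, 1488 TPM, with 12 of 12 genes at 10 TPM or more (47% of all genes were), so the defining markers of the labelled tissue were all present. Summed, the list reached 55827, 46190.2, 50776 and 49346 TPM in controls a to d, 6.12% ± 0.467 of the listed TPM (SD, n = 4). Scd and Awat2 made up most of that sum.

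Genes of basal, ductal and cornifying epithelium were also measured. The basal list summed to 8138, 10367, 8873 and 9617 TPM, led by Krt14 and Krt5. The list had 7 of 7 genes at 10 TPM or more, where 47% of all genes were. Tp63, the basal transcription factor, was its median gene at 80.6 ± 7.39 TPM, and Lamb3, a laminin chain of the basement membrane, its lowest at 33.9 ± 3.58 TPM. The ductal and spinous list had a median of 1174 TPM, led by Krtdap, a keratinocyte differentiation protein, at 1662 ± 132 TPM. Krtdap had only 630 to 768 counts in a library, against 27666 to 35256 for Krt17 at 1592 TPM. The first place of Krtdap therefore rests on the correction for transcript length. The cornified list had a lower median of 18.2 TPM, with 8 of 9 genes at 10 TPM or more (47% of all genes were). Only the envelope precursor Sprr1a, at 881, 915, 896 and 1201 TPM, and the protease Klk7, at 159 ± 18.3 TPM, passed 100 TPM there. Loricrin, Flg and Flg2, also on this list, were not analysed here, so the level of cornification as a whole is not given by it. Krt13 and Krt4, keratins of the conjunctiva, were abundant. Pax6, the eye field factor that ocular surface epithelium keeps, had 21.3, 25.4, 24.6 and 30.5 TPM, whereas Krt12, the keratin of corneal epithelium, had only 3.62, 4.70, 5.28 and 12.6 TPM. Muc5ac, the goblet cell mucin, was not analysed here.

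Hair follicle genes were clearly present. Krt71, Krt25 and Krt27, keratins of the inner root sheath, stood at 309.6, 217, 289.6 and 347 TPM, 264, 167, 241 and 295 TPM and 139.8, 98.4, 129.7 and 158 TPM, all lowest in control b and highest in control d. Krt31 and Krt85, keratins of the hair shaft, had 112, 157, 69.99 and 119 TPM and 88.6, 82.3, 59.1 and 88 TPM. Pigment cell genes were measured although the strain is albino: Pmel at 32.2, 40.8, 49.9 and 65.1 TPM and Tyrp1 at 21.3, 22.2, 31.9 and 41 TPM, and the tyrosinase gene Tyr at 4.0, 3.44, 4.77 and 6.86 TPM. All 3 were highest in control d, although Tyr stood below 10 TPM. Of all genes at a mean of 10 TPM or more, 16.4% were highest in control d and 29.4% lowest in control b. Of the 10 hair follicle genes at that level, 7 were highest in control d and 6 lowest in control b.

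Skeletal muscle took 0.423% ± 0.0776 of the listed TPM (SD, n = 4), with 11 of 11 genes at 10 TPM or more (47% of all genes were). Acta1, the actin of skeletal muscle, stood at 689.8, 648, 912 and 823 TPM, Ckm, the muscle creatine kinase, at 391, 408, 579 and 579.7 TPM and Myh4, the fastest myosin, at 262, 265, 358 and 352 TPM. In each of the 3, controls c and d lay above controls a and b. Smooth muscle was led by Acta2 at 259 ± 22.6 TPM and Tagln at 254 ± 38.2 TPM, and all 6 genes of its list were highest in control c, where 29.7% of all genes at 10 TPM or more were.

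**Figure D3:**
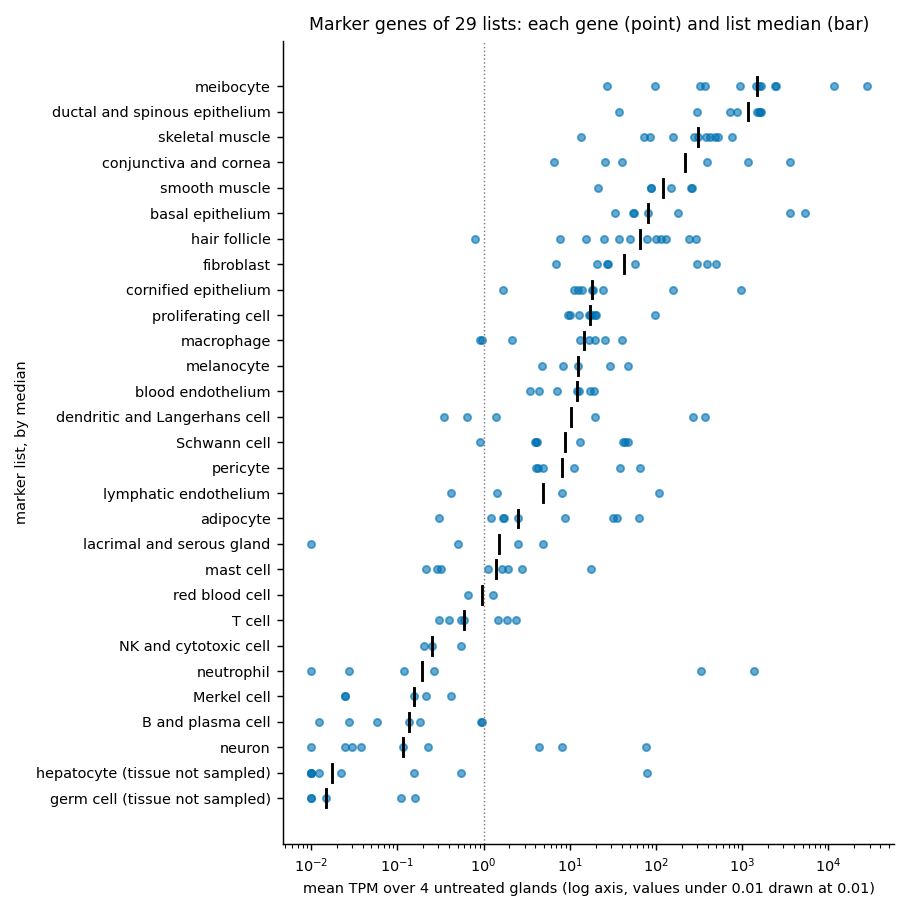
Mean TPM of each marker gene (points, log axis) and the list median (bars) for 29 lists, ordered by median; the dotted line marks 1 TPM. Meibocyte, ductal and muscle lists lie to the right, and blood cell, neuron and Merkel cell lists to the left, with single genes far from the rest of their list such as S100a8, S100a9, Rbfox3 and Serpina1.

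Stroma and vessels gave moderate values. Col1a1 and Col3a1, collagens of fibroblasts, stood at 361, 438, 569 and 598 TPM and 294, 399, 458 and 424 TPM, lowest in control a. The endothelial genes Emcn and Cdh5 had 19.2 ± 2.52 and 12.9 ± 1.48 TPM, the pericyte gene Rgs5 65.5 ± 5.75 TPM, and Ccl21, a chemokine of lymphatic endothelium, 75, 105, 109 and 142 TPM, again lowest in control a. Of nerve, Schwann cell genes were measured, with the myelin gene Mbp at 43.8 ± 2.59 TPM. Of 9 fat cell genes 3 stood at 10 TPM or more (47% of all genes did), the adipokine Cfd at 62.4, 54.3, 85 and 49.9 TPM, Fabp4 at 35.6 ± 5.93 TPM and the droplet coat Plin4 at 32.1 ± 3.60 TPM. The hormone genes were lower, with Adipoq at 9.01, 5.41, 17.6 and 3.04 TPM and Lep at 0.16, 0.12, 0.89 and 0.06 TPM; both, and Cfd, were highest in control c. Genes of dividing cells included Pcna at 96.9 ± 12.1 TPM, Top2a at 18 ± 2.52 TPM and Mki67 at 16.6 ± 1.61 TPM.

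Markers of most immune cells were low. Macrophage genes were led by Cd68 at 27, 51, 42.4 and 38.9 TPM and C1qa at 19, 38.3, 27.6 and 18.2 TPM. Cd74, the class II chaperone, stood at 196, 366, 239 and 269 TPM and Cd207, the langerin of Langerhans cells, at 13.1, 27.1, 16.6 and 21.1 TPM. Cd68, C1qa, Cd74 and Cd207 were all highest in control b, where 20.8% of all genes at a mean of 10 TPM or more were. Epcam, on the list with Cd74 and Cd207, was highest in control c. Genes of T cells (Cd3e, 1.87 ± 0.361 TPM), B cells (Cd79a, 0.96 ± 0.513 TPM), cytotoxic cells (Nkg7, 0.55 ± 0.486 TPM) and mast cells (Cpa3, 1.93 ± 0.172 TPM) were low. Kit, on the mast cell list and also known in pigment cells, had 17.8 ± 2.64 TPM. Slc4a1 of red blood cells had 1.29 ± 0.324 TPM.

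Some markers stood apart from the rest of their list. S100a8 and S100a9, calprotectin subunits that neutrophils and keratinocytes share, stood at 1399, 1309.8, 1435 and 1271 TPM and 331, 366, 341 and 307 TPM, while the neutrophil genes Csf3r and Mpo had at most 0.16 and 0.11 TPM in any library and Elane was listed at 0. Defb1 and Defb4, epithelial defensins, had 134 ± 7.32 and 70.9 ± 9.94 TPM. Rbfox3, the nuclear marker NeuN, stood at 96.1, 58, 85.2 and 67.6 TPM with whole counts, followed on the neuron list by Uchl1 at 8.04 ± 1.61 TPM and Tubb3 at 4.37 ± 0.509 TPM. Of the other 6 neuron genes Snap25, Nefl and Nefm were at or under 0.06 TPM in every library, Elavl4 was listed at 0, and Th and Syt1 had means under 1 TPM. Serpina1, a protease inhibitor known from liver, stood at 38.4, 95, 89.2 and 88.7 TPM, lowest in control a and with counts that were not whole, while the liver genes Alb, Ttr and Tat were listed at 0. Lacrimal genes were low, with Bhlha15 at 4.95 ± 0.579 TPM and Bpifa2 listed at 0. Lists of tissues not sampled, liver and germ cells, had medians of 0.0175 and 0.015 TPM, which gives the background of this reading.

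The 4 libraries were much alike. Among genes at a mean of 10 TPM or more the median CV (SD divided by the mean) was 0.0698, and the common biological coefficient of variation estimated by edgeR from the counts was 0.112. The CV was larger in low genes, with a median of 0.143 over 4498 genes at 1 to 10 TPM, 0.0712 over 6725 genes at 10 to 100 TPM, 0.0608 over 1274 genes at 100 to 1000 TPM and 0.0706 over 114 genes at 1000 TPM or more. Of the defining genes, Awat2 had a CV of 0.0514, Scd 0.0909, Krt14 0.1, Elovl4 0.105 and Soat1 0.141. Of 14 genes in common use as references, 9 had a CV at or under the median of all genes and 5 a higher one. Among the even ones Ppia, a cyclophilin, measured 2131, 2127, 2088 and 2049 TPM, Ywhaz 488, 467, 451 and 468 TPM and Rplp0 2646, 2897, 2679 and 2664 TPM. The 5 above the median were Tfrc, the transferrin receptor, at 209, 148, 153 and 172 TPM (CV 0.163), the TATA-binding protein gene Tbp (CV 0.152), B2m (CV 0.11), Actb (CV 0.0787) and Gusb (CV 0.0758). Gapdh was not analysed here. The 10 genes of lowest CV included Pacsin2, a membrane-shaping protein, at 45.7, 45.7, 45.5 and 45.5 TPM (CV 0.0025), Lactb at 26.6, 26.5, 26.5 and 26.7 TPM and the adhesion receptor Adgrf4 at 134, 135, 134 and 135 TPM. The others were Nipbl, Med20, Zc3h7b, Plpp6, Pi4kb, Rragc and Pld3, with CVs up to 0.00728. For each of the 10, the CV expected from counting error alone was larger than the CV observed. It was 0.0241 for Pacsin2, 0.0374 for Lactb and 0.0131 for Adgrf4. Their low CVs therefore do not single them out as genes of steady expression.

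A CV over 0.5 was found for 30 of 8113 genes, 0.37%. Of these 30, 12 were highest in control b, 8 in control a, 6 in control c and 4 in control d. Over all 8113 genes the shares were 20.8% in control b, 33.1% in control a, 29.7% in control c and 16.4% in control d. The genes named for the highest CV fell into a few kinds. Lyz2, the lysozyme of macrophages, stood at 88.6, 339, 144 and 85.7 TPM and Cd300c2, a receptor of myeloid cells, at 4.91, 21.6, 9.63 and 5.93 TPM, both highest in control b. Krt77, a keratin of skin, and Hpd, an enzyme of tyrosine breakdown, also stood apart in control b, at 15, 47.2, 17.9 and 17.7 TPM and 8.49, 23.1, 7.95 and 8.57 TPM. Control b was again the highest for Pnoc, the nociceptin precursor, at 5.24, 83.2, 15.7 and 54.7 TPM and Gp2, a membrane glycoprotein, at 2.12, 24.9, 8.12 and 14.9 TPM, and control a was the lowest for both. The early response gene Fos was highest in control a, at 23.1, 4.90, 7.62 and 6.06 TPM, and the amino acid oxidase Lao1 in control c, at 73.3, 67.9, 267 and 98.5 TPM. H3f3c, a histone gene with close copies whose counts were not whole, stood at 17.3, 18.1, 15.4 and 82 TPM. SNORD22 and SNORA70 are small nucleolar RNAs with at most 6 and 4 counts in a library, so that their spread is at the level of single reads.

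**Figure D4:**
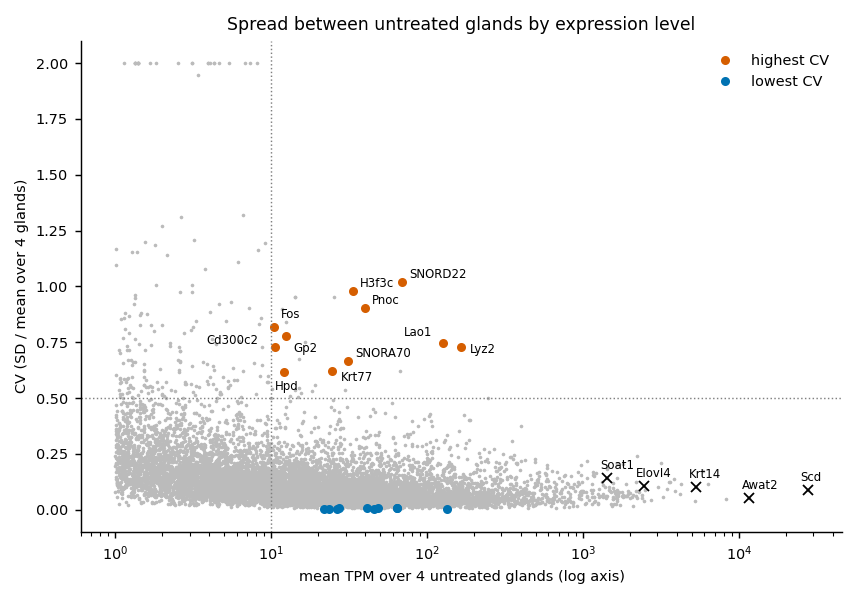
CV over the 4 untreated glands against mean TPM (log axis) for each gene at a mean of 1 TPM or more; orange points are the genes named for the highest CV, blue points the 10 of lowest CV and crosses 5 marker genes. Most genes lie under the dotted line at a CV of 0.5, and the 5 marker genes lie between 0.0514 and 0.141.

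Control a stood furthest from the other glands. It was farthest from the median of the 4 for 3099 of 8113 genes (38.2%), where controls b, c and d were so for 22.3%, 19.9% and 19.6%. Without control a the biological coefficient of variation was 0.0966. In control a the sum of the cholesterol synthesis list was 15488 TPM against 12726 to 13726 TPM in the others, and that of the meibocyte list 55827 TPM against 46190.2 to 50776 TPM. Its fibroblast sum was 990.4 TPM against 1292 to 1518 TPM and its basal sum 8138 TPM against 8873 to 10367 TPM. Of the 18 cholesterol genes 16 were highest in control a, where 33.1% of all genes at 10 TPM or more were, and of the 7 basal genes 7 were lowest there, where 30.6% of all were; both counts were made after the values were seen. The part of the balance of tissue in any of these values was not tested.

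**Figure D5:**
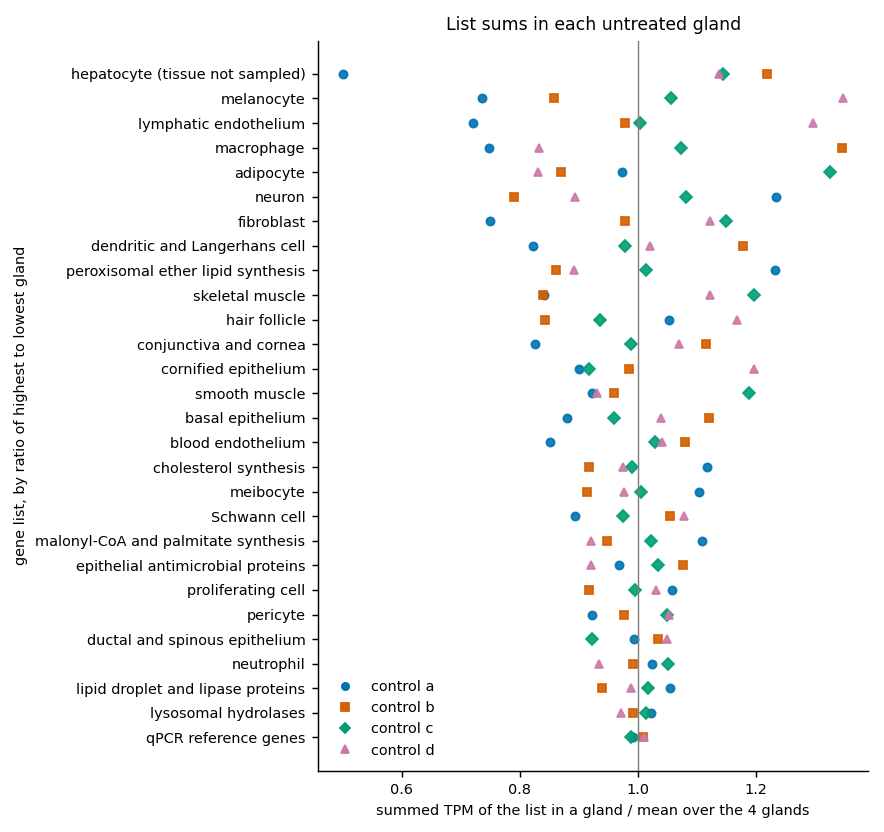
Summed TPM of each gene list with a mean sum of 50 TPM or more in each untreated gland, divided by the mean of the 4, ordered by the ratio of the highest to the lowest gland. Reference and lysosomal lists lie close to 1 in all 4, while lymphatic endothelium, melanocyte and macrophage lists spread by 1.80 to 1.83 times. Of the mean lymphatic sum of 118 TPM, Ccl21 alone is 107 TPM. The list of liver genes, in which Serpina1 is nearly the whole sum, spreads by 2.44 times.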

How the data were processed

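Per the submitters' processing notes, FastQC, Trimmomatic, DRAGEN and Picard were used on build rn7; their versions, the gene models and whether counting used strand are not given in the sources used here. The authors deposited 2 tables, 1 of expected counts and 1 of TPM. In the control columns 12.5% of the expected counts were not whole. Names in both tables hold commas, so each row was split from its last field backward; 5 rows without values were left out of each table. Columns carry the group but no replicate number.

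From TPM, the mean, SD, CV and rank over 4 libraries were computed (Python 3.11.15, pandas 2.3.3). From counts rounded to whole numbers, edgeR 4.0.16 gave the common dispersion, in a fit with an intercept only, TMM factors and filterByExpr; DESeq2 1.42.0 gave alternative size factors. No contrast was tested.

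The genes and lists were chosen with earlier results of these data known. Of 527 listed symbols, 467 were in the table and 60 were not analysed here. Named genes are 5 markers, the 30 most abundant, the 2 leading members of each family and those under 0.1 TPM in every library, the 3 leading genes of each list and those at 0, and the 12 highest and 10 lowest in CV at 10 TPM or more. Some genes that this rule names are not reported here, although counts, list sums and medians include them. Other names were picked after their values were seen. Gene IDs of 15684 genes matched RefSeq (GRCr8), used for names, neighbours and promoters only. Alternatives covered thresholds, counts in place of TPM, sums without ribosomal and mitochondrial genes, scaling, and each library left out.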

Additional observations from a re-analysis of the deposited data

Results flagged for a closer look

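Of 281 values compared over the 4 glands, 28 had 1 library far from the other 3, in the sense that the gap to the nearest other library took up most of the range. Chance flags about 1 value in 20, or 14.05 here, and values that share libraries are not separate trials. The library apart was control a for 9 values, control b for 9, control c for 6 and control d for 4. Several of the genes had been picked for their high CV or after their values were seen, so more gaps than by chance do not show that the glands differ.

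In control a, 3 genes stood above the others: Hmgcs1 measured 2573 TPM against 2019.8 to 2077 TPM, Cers4 375 TPM against 262 to 268 TPM and Mgst1 2035 TPM against 1786 to 1825 TPM. Fos, at 23.1 TPM, and SNORD22, at 174 TPM, were high there too, against at most 7.62 and 42.0 TPM. The elongase Elovl2 was low, at 3.49 TPM against 5.35 to 5.73 TPM. Serpina1 was low as well, at 38.4 TPM against 88.7 to 95.0 TPM, and with it the sum of the list of liver genes, at 39.3 TPM against 89.4 to 95.7 TPM.

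In control b, Krt77 measured 47.2 TPM against 15.0 to 17.9 TPM and Hpd 23.1 TPM against 7.95 to 8.57 TPM. Smaller gaps upward were those of Lipa at 11.9 TPM (9.68 to 9.99 in the others), Rplp0 at 2897 TPM (2646 to 2679) and Agps at 7.59 TPM (7.05 to 7.14). Fads6 was low, at 235 TPM against 345 to 358 TPM, as were Slc2a1, at 73.4 TPM against 80.2 to 81.4 TPM, and Plin4, at 26.7 TPM against 33.1 to 34.4 TPM. SNORA70 was listed at 0 in control b and at 39.8 to 42.4 TPM in the others.

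In control c, Fkbp5 measured 53.8 TPM against 20.6 to 22.7 TPM and Lao1 267 TPM against 67.9 to 98.5 TPM. Lpl at 17.7 TPM (12.9 to 13.4 in the others) and Lep at 0.89 TPM (0.06 to 0.16) were highest there too, and so was the sum of the smooth muscle list, at 1019.5 TPM against 792 to 824 TPM. In control d, Sprr1a measured 1201 TPM against 881 to 915 TPM and H3f3c 82.0 TPM against 15.4 to 18.1 TPM. Plpp6, 1 of the 10 genes of lowest CV, was marked at 27.5 TPM in control d against 27.1 TPM in the others, which shows how small a gap this comparison can mark. Esr2 (0.04 TPM in control a), Mpo (0.11 TPM in control c) and Srd5a2 (0.08 TPM in control d) were marked because the other libraries were at 0.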

How the results depend on the processing

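No paired analysis was possible because there is 1 group and its columns carry no replicate numbers. Counts in place of TPM, which weigh long transcripts more, moved the most values. The genes holding 50% rose from 399.5 to 663.75 on average, the share of Scd from 3.35% to 7.96%, that of the meibocyte list from 6.12% to 10.5%, while that of the 100 most abundant genes went from 29.9% to 26.9% and that of skeletal muscle from 0.423% to 0.332%. Without ribosomal and mitochondrial genes the shares were 3.74% for Scd, 28.8% for the 100 genes and 6.83% for the meibocyte list; of the full TPM total, beyond the genes listed, Scd took 2.77%. From a mean of 1 TPM upward, 220 genes had a CV over 0.5, against 30 from 10 TPM. The share of Scd among stearoyl-CoA desaturases, 89.5%, was 93.0% without Scd3 and 94.3% by counts, both chosen after seeing the data.

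Leaving out 1 library at a time gave 24 to 38 genes with a CV over 0.5, a biological coefficient of variation of 0.0966 to 0.121, 43 to 45 families with 1 leader and 12140 to 12232 genes detected. Ordered by counts, 45 families had 1 leader. At 21058541 to 28784941 counts per library, genes under 1 TPM rest on few reads, and the 4 libraries limit every statement on spread.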

Other observations

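The genes named here were picked after the values were seen, and their values are given as a description. Several abundant transcripts outside the lists act on lipids of the kind meibum holds. Cyp4f39, a cytochrome P450 that hydroxylates the end of very long acyl chains, stood at 1141, 915, 1321 and 1263 TPM in controls a to d, lowest in control b. Adtrp, a membrane hydrolase of fatty acid esters of hydroxy fatty acids, stood at 1702, 1933, 1704 and 1859 TPM. Both lie among the 101 most abundant genes. Psapl1, a relative of the saposin precursor, had 1632 ± 111 TPM (SD, n = 4), Aadac, an esterase of the endoplasmic reticulum, 589 ± 55.7 TPM, and Pctp, a phosphatidylcholine carrier, 1238, 879, 971 and 784 TPM, highest in control a. Crat, the carnitine acetyltransferase, had 569 ± 93.3 TPM, and of the peroxisomal genes Scp2 had 724 ± 54.8 TPM and Acoxl 469 ± 34.8 TPM. Mgst1, a membrane glutathione transferase, had 1867 ± 113 TPM. Retinoid enzymes were abundant as well, with the retinol dehydrogenase Sdr16c5 at 858 ± 83.5 TPM and the retinal reductase Rdh12 at 916 ± 96.7 TPM. Colec11, a soluble lectin of innate immunity, had 1434, 1761, 1658 and 1717 TPM with counts that were not whole in any library.

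Some genes with a shared role, picked after their values were seen, were high in the same gland, which is a description only. Of all genes at a mean of 10 TPM or more, 33.1% were highest in control a, 20.8% in control b and 29.7% in control c. Fkbp5, Tsc22d3 and Per1, known targets of the glucocorticoid receptor, were highest in control c, with Fkbp5 at 20.6, 22.7, 53.8 and 22.2 TPM, Tsc22d3 at 45.8, 68.3, 94.5 and 28.8 TPM and Per1 at 22.4, 31.4, 41.7 and 13.9 TPM. Irs2, an adaptor of the insulin receptor, was also highest there, at 11.9, 12.9, 27.5 and 9.75 TPM. The receptor itself, Nr3c1, was even. In control b, genes of myeloid cells were highest, with Tyrobp at 15.4, 42.9, 20.1 and 20.9 TPM, Fcer1g at 10.2, 34.5, 16.8 and 14.7 TPM and Gpnmb at 66.1, 166, 94.6 and 86.1 TPM, beside Lyz2 and Cd300c2. In control a the early response gene Egr1 measured 74.3, 36.8, 42 and 27.3 TPM, beside Fos. A further set split the glands into pairs. Cyp17a1, a steroid hydroxylase, measured 379, 141, 327 and 143 TPM, Slc7a5, an amino acid transporter, 257, 133, 248 and 113 TPM, Igfbp4, a binding protein of insulin-like growth factors, 268, 119, 189.8 and 111 TPM and the mineralocorticoid receptor Nr3c2 25.9, 11.2, 17.2 and 10.6 TPM, all higher in controls a and c than in b and d. The labels give nothing that tells these 4 glands apart, and no cause was tested.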
